A study of Mus musculus with 4 samples.

Results

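The 10 genes described here, Cyp7a1, Hsd3b7, Cyp8b1, Akr1d1, Cyp27a1, Cyp7b1, Slc27a5, Baat, Slc10a1 and Abcb11, encode enzymes and transporters of hepatic bile acid metabolism. They are 10 of the 22380 protein-coding genes of the GENCODE M1 annotation, and SHP peaks were assigned to them when a listed interval lay within 5 kb of the gene body in the mm9 build. By this rule 4 of 1508 peaks in the vehicle list and 7 of 3155 peaks in the FGF19 list belonged to the bile acid genes. The genes were chosen by name and not by their SHP signal, although earlier results of these data were known.

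The groups differed in a tail vein injection, which was vehicle in one and FGF19 at a dose of 1 mg/kg in the other, 2 h before the liver was taken. Both groups were male wildtype C57BL/6 mice, aged 8 to 12 weeks and without food for the 12 h before injection. Chromatin was precipitated with 4 ug of an SHP antibody, and material from 3 mice was pooled, leaving 1 SHP library and 1 input library per group. No difference between vehicle and FGF19 can therefore be tested, no p-value is given, and the 95% intervals cover counting error alone. The SHP libraries held 15473647 tags with vehicle and 13444078 with FGF19 after duplicates were removed, and the depth-scaled pileups given here are pileups per 1000000 of these tags. Peak lists hold no RNA levels, so the liver identity of the tissue was not checked against marker genes.

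Bile acids are made from cholesterol in hepatocytes by a classic pathway, which CYP7A1 opens, and by an acidic pathway, which CYP27A1 opens, and they are then linked to taurine or glycine and pumped into bile. After a meal the ileal hormone FGF15, whose human counterpart is FGF19, acts on hepatocytes through FGFR4 and beta-Klotho and lowers bile acid synthesis. SHP takes part in this feedback as a co-repressor that cannot bind DNA itself and is held on chromatin by other proteins, among them the nuclear receptors LRH-1 (NR5A2) and HNF4A. The promoters of Cyp7a1 and Cyp8b1 are the textbook places for such binding.

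SHP peaks were listed at 3 of the 10 bile acid genes with vehicle, namely Cyp8b1, Cyp7b1 and Slc27a5, and at 5 of 10 with FGF19, where Hsd3b7 and Slc10a1 joined these 3. Across all protein-coding genes 7.93% had a vehicle peak and 16.3% had an FGF19 peak by the same rule. Both lists held a peak for 3 of the 10 genes, against 4.31% of all genes. An FGF19 peak without a vehicle peak was found for 2 of the 10, against 12.0% of all genes, and a vehicle peak without an FGF19 peak for 0 of 10, against 3.62%. The gene bodies were of ordinary size, with a median of 17665.5 bp against 15420.5 bp for all protein-coding genes. Cyp7a1, Akr1d1, Cyp27a1, Baat and Abcb11 had no peak in either list.

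All 11 peaks had their summits inside exons. Of the 11 summits, 10 lay in coding sequence, and 10 of the 11 intervals lay wholly inside 1 exon. Without the peaks wholly inside 1 exon, an alternative added after the data were seen, the counts of bile acid genes became 0 with vehicle and 1 (Slc27a5) with FGF19. Of all protein-coding genes 6.74% and 14.5% had a peak by that rule, and 10 genes are too few to tell these counts from such shares. No interval reached the 300 bases in front of a gene start. Among all genes with a peak, 48.4% in the vehicle list and 52.4% in the FGF19 list had a peak that reached those bases. Whether the peaks inside exons mark SHP binding was not tested.

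**Figure D1:**
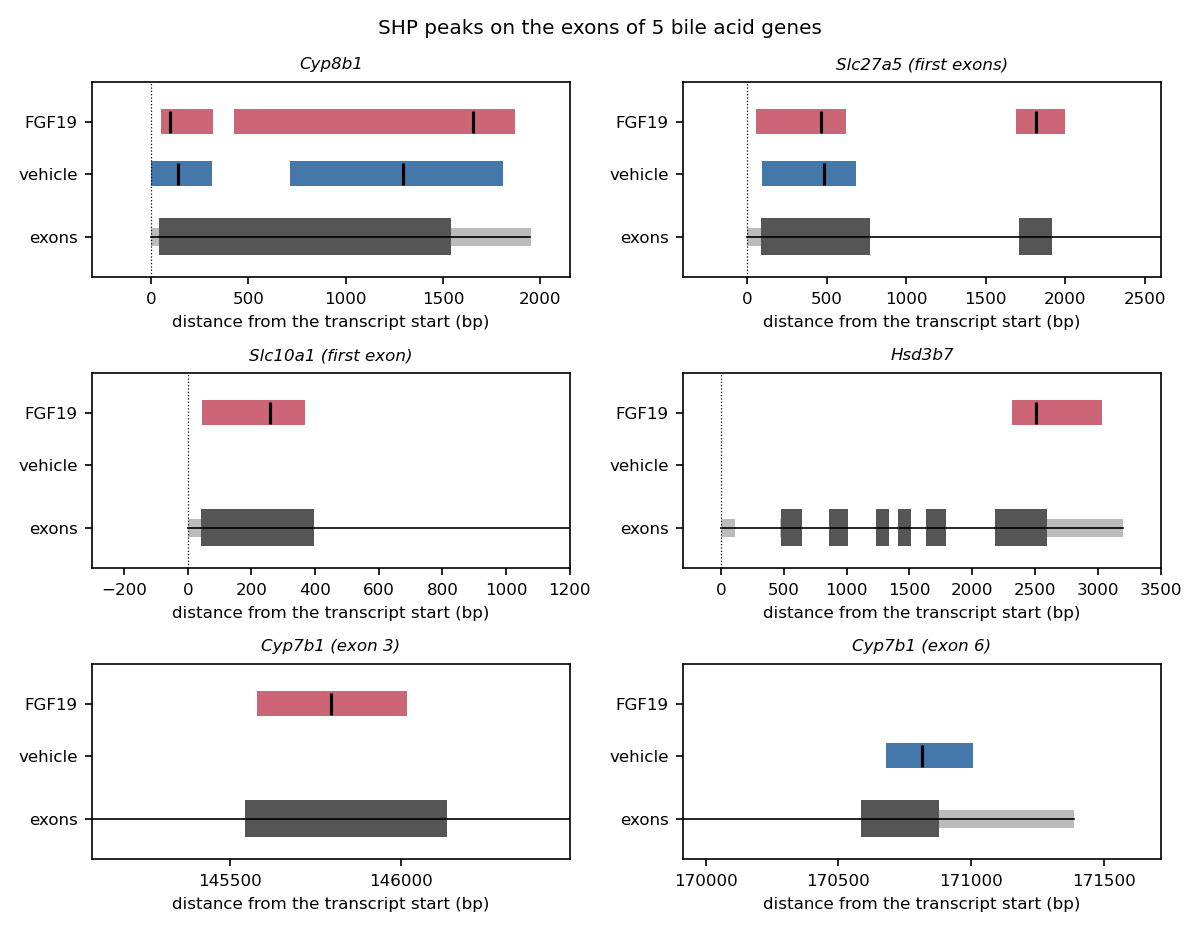
Listed SHP peaks of the FGF19 list (red) and vehicle list (blue) over the exons of Cyp8b1, Slc27a5, Slc10a1, Hsd3b7 and Cyp7b1, plotted as distance from the transcript start in bp, with coding sequence in dark grey, untranslated exon in light grey and the summit as a black tick. All 11 summits fall on exons, and no peak extends to the left of the dotted transcript start.

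The sequence in front of Cyp8b1 is shown first because the gene is a known target of LRH-1 and HNF4A, and because no listed peak covered it. It is from the mm9 genome, read 5′ to 3′ on the minus strand that carries the gene. The capitals mark exact matches to CAAAGTCCA (HNF4-type) and CAAGGNCA (NR5A2-type). The Cyp8b1 sequence is chr9:121825424-121825543 and ends at the base before the transcript start.
Cyp8b1 upstream: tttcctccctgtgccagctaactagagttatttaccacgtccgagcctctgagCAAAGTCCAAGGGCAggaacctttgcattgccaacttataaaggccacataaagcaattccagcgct
In front of Cyp8b1 the HNF4-type match (bases -67 to -59 from the transcript start) overlapped the NR5A2-type match (-60 to -53), so that both share letters. In the 300 bases upstream of all protein-coding genes, 0.474% held an HNF4-type match and 6.37% an NR5A2-type match. A match is a description of letters and not of a bound site.

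The sequences under the peaks are shown next, since all but 1 of the summits lay in coding sequence. The Cyp8b1 window is chr9:121825181-121825381 around the vehicle summit near the transcript start, and the Slc27a5 window is chr7:13582913-13583113 around the vehicle summit in exon 1. Both are given 5′ to 3′ on the minus strand, the coding strand of these genes, with the NR5A2-type match in capitals, which reads here as the reverse complement of CAAGGNCA.
Cyp8b1 vehicle: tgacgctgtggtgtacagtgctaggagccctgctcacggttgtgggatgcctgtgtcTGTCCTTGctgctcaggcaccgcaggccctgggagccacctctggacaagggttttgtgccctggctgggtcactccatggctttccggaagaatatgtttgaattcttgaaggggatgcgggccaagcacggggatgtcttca
Slc27a5 vehicle: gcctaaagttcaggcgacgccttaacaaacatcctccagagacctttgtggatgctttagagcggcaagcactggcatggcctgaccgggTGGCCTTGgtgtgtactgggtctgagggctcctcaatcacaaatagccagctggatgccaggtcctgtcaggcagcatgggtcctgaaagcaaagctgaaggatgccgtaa
These were the sole NR5A2-type matches within 100 bp of a summit at the bile acid genes, and each was counted in both lists, so that 2 of 4 vehicle windows and 2 of 7 FGF19 windows held the motif. Of all windows of 201 bp, 3.51% in the vehicle list, 2.99% in the FGF19 list and 3.97% of those centred on gene starts held it. The counts rest on 2 stretches of sequence, several motifs were searched, and enrichment was not tested. The Cyp8b1 match lay 2.5 bp from the FGF19 summit and 39.5 bp from the vehicle summit. The Slc27a5 match lay 14.5 bp and 6.5 bp from these summits.

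Slc10a1 and Hsd3b7 had a peak in the FGF19 list alone, and the peaks of Cyp7b1 lay at different places in each list. Their summit sequences are given in the coding direction, with the 11 bases centred on the summit in capitals. They are chr12:82068613-82068813 (minus strand) in exon 1 of Slc10a1, chr7:134946528-134946712 (plus strand) in exon 7 of Hsd3b7, chr3:17972460-17972623 (minus strand) in exon 6 of Cyp7b1 for vehicle, and chr3:17997443-17997643 (minus strand) in exon 3 of Cyp7b1 for FGF19. Bases outside the coding sequence are left out.
Slc10a1 FGF19: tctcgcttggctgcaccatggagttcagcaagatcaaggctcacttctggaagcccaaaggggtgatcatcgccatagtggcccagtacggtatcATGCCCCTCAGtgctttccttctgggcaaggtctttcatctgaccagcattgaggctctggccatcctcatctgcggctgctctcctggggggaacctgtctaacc
Hsd3b7 FGF19: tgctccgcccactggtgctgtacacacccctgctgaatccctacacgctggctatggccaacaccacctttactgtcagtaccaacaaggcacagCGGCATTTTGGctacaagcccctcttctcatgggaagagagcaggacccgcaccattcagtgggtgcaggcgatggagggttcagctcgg
Cyp7b1 vehicle: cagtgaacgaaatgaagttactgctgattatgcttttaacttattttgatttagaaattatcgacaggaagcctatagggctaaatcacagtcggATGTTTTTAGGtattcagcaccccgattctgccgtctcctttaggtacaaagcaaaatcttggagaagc
Cyp7b1 FGF19: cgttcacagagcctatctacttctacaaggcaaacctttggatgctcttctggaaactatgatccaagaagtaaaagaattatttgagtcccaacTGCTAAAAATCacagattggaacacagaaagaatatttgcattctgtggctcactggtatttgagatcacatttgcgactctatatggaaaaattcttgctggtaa
Over the 201 bp around each summit the G and C content was 40.8% for the vehicle peak of Cyp7b1 and 37.8% for its FGF19 peak. The other 9 windows at bile acid genes ranged from 53.7% to 59.2%. All 11 were below the median of their list, which was 63.7% with vehicle and 68.2% with FGF19.

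Of the 4 genes of the classic pathway, Cyp8b1 had a peak in both lists, Hsd3b7 with FGF19 and Cyp7a1 and Akr1d1 in neither. CYP8B1 is the sterol hydroxylase that sets how much cholic acid is made, and its gene is a single exon of 1950 bp on chr9:121823474-121825423. The values below are pileups, which are counts of extended tags at the summit, and fold enrichments, which set the pileup against the local input background.

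Near the transcript start of Cyp8b1 both lists had 21 tags (95% interval 13.0 to 32.1). Depth-scaled, that equals 1.36 with vehicle and 1.56 with FGF19. The ratio of these levels, FGF19 over vehicle, was 1.15 with an interval (0.598 to 2.21) that includes 1. The fold enrichment, 4.47 for vehicle against 3.76 for FGF19, gave a log2 ratio of -0.25, whereas the log2 ratio of the depth-scaled pileup was 0.20, so that the sign depended on the measure. The local input background was 3.92 tags with vehicle and 4.84 with FGF19. The vehicle interval, chr9:121825108-121825422, stopped 1 bp inside the transcript start, and the FGF19 interval, chr9:121825104-121825369, stopped 54 bp inside it. Neither interval held any of the promoter bases shown above.

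The inner part of the Cyp8b1 exon carried a broader peak in each list. With vehicle it spanned 1090 bp, chr9:121823617-121824706, with 22 tags (13.8 to 33.3) at a summit 1296 bp from the start and in coding sequence. With FGF19 it spanned 1441 bp, chr9:121823554-121824994, with 27 tags (17.8 to 39.3) at a summit 1656 bp from the start and in the 3′ untranslated part. The summits were 360 bp apart, against a median gap of 58.5 bp at the 678 regions common to both lists.

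At this inner region fold enrichment stood at 2.99 for vehicle and 6.84 for FGF19, which is 2.29-fold higher (log2 ratio 1.19). Of the 678 common regions, 0.590% were at least 2-fold higher with FGF19 and 3.69% at least 2-fold lower. The depth-scaled pileup was 1.41-fold higher with FGF19 with an interval of 0.775 to 2.60, which includes 1. The local input background was 6.70 tags with vehicle and 3.10 with FGF19. Its part in the ratio was not tested.

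HSD3B7 is the steroid oxidoreductase that follows the hydroxylation of the sterol ring in the classic and acidic pathways. Its gene lies on chr7:134929122-134947316, and the FGF19 peak, chr7:134946431-134947149, was 719 bp long and lay inside exon 7 of 7, the last exon of 1017 bp. The summit was 2510 bp from the start of the main transcript, in coding sequence, and 17506 bp from the outermost annotated start of the gene. The pileup was 20 tags (12.2 to 30.9), depth-scaled 1.49, below the list median of 24 tags. The fold enrichment was nevertheless 7.31, the highest at any bile acid gene and above 97.2% of the FGF19 list, while the pileup was above 22.7% of it. The local input background there was 1.87 tags, at the lowest value of the FGF19 list and at the level expected from an even spread of the tags over the genome. The nearest vehicle peak was 39335 bp away.

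CYP7A1, the rate-limiting enzyme of the classic pathway, had neither a peak nor a near neighbour. From its gene, chr4:6192759-6202780, the nearest vehicle peak was 2326782 bp away and the nearest FGF19 peak 2259849 bp away. AKR1D1 is the reductase that sets the bent ring junction typical of bile acids. From its gene, chr6:37480173-37518815, the nearest peaks were 785169 bp away with vehicle and 87736 bp with FGF19. The lists hold no value where no peak was called, so signal below the cutoff at these genes is not measured here.

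In the acidic pathway, CYP7B1, the oxysterol hydroxylase, had 1 peak in each list, and CYP27A1, the mitochondrial sterol hydroxylase, had none. The vehicle peak of Cyp7b1, chr3:17972330-17972657, lay in exon 6 of 6 with its summit 170815 bp from the transcript start and 26 tags (17.0 to 38.1). The FGF19 peak, chr3:17997320-17997759, lay in exon 3 of 6 with its summit 145795 bp from the start and 27 tags (17.8 to 39.3). The summits were 25020 bp apart, so that Cyp7b1 counts as having a peak in both lists without a shared region.

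Cyp7b1 had fold enrichments of 5.76 for vehicle and 5.28 for FGF19, above 85.3% and 86.3% of the respective lists. The input background was 3.69 and 4.30 tags. The gene is 171389 bp long (chr3:17971950-18143338), and the nearest annotated start to both summits was that of its neighbour Bhlhe22, at 18198 bp from the vehicle summit and 43218 bp from the FGF19 summit. When peaks went to the single nearest start within 50 kb, Cyp7b1 dropped out and the counts became 2 of 10 genes with vehicle and 4 of 10 with FGF19, against 5.67% and 12.0% of all genes by that rule. From Cyp27a1, chr1:74760148-74784464, the nearest peaks were 51523 bp away with vehicle and 316505 bp with FGF19.

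Of the conjugation genes, Slc27a5 had peaks in both lists and Baat in neither. SLC27A5 is the bile acyl-CoA synthetase that activates bile acids, and BAAT joins them to the amino acid. Slc27a5 lies on chr7:13573695-13583541. In exon 1 of Slc27a5 the pileup was 26 tags (17.0 to 38.1) with vehicle, over chr7:13582817-13583407, and 28 tags (18.6 to 40.5) with FGF19, over chr7:13582879-13583440. The summits were 486 bp and 465 bp from the transcript start and only 21 bp apart, the closest pair at the bile acid genes. Depth-scaled, the levels were 1.68 and 2.08, a ratio of 1.24 with an interval (0.701 to 2.20) that includes 1. Another annotated Slc27a5 transcript starts 13 bp from the vehicle summit and 8 bp from the FGF19 summit, inside this exon.

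In exon 1 of Slc27a5 fold enrichment stood at 4.00 for vehicle and 6.52 for FGF19 (log2 ratio 0.70), and the input background was 5.74 and 3.45 tags. The background is computed from pileup and fold enrichment, so at similar pileups a higher fold enrichment comes with a lower background by construction. The part of the background was not tested. Over all 678 common regions the median log2 ratio of fold enrichment was -0.02 (quartiles -0.36 and 0.32), and the median log2 ratio of depth-scaled pileup was 0.20 (-0.02 and 0.43). At these regions the median input background was 5.74 tags with vehicle and 5.65 with FGF19.

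A further FGF19 peak of Slc27a5, chr7:13581502-13581806, covered exon 2, with its summit 1818 bp from the transcript start and 216 bp from another annotated Slc27a5 start. It had 20 tags (12.2 to 30.9) and a fold enrichment of 4.55. This was the single interval at the bile acid genes that ran past an exon, and 210 of its 305 bases were exon 2, all of that exon. No vehicle peak overlapped it.

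**Figure D2:**
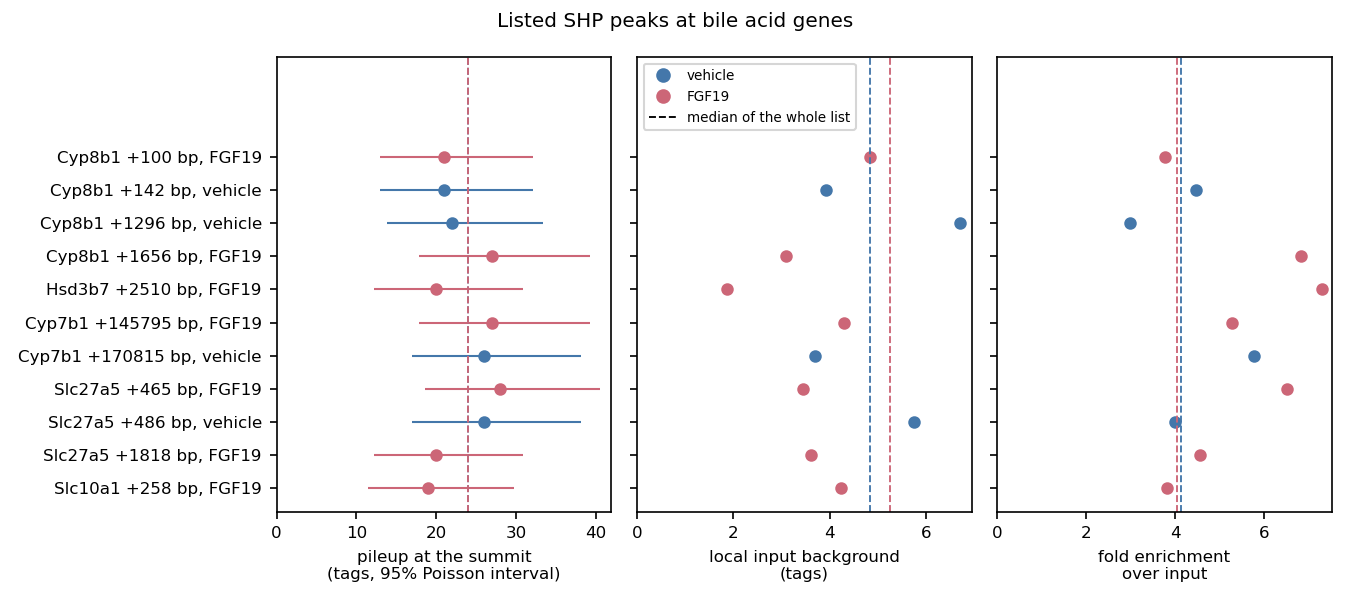
Pileup at the summit in tags with exact Poisson 95% intervals (left), local input background in tags (middle) and fold enrichment over input (right) for the 4 vehicle peaks (blue) and 7 FGF19 peaks (red) at bile acid genes, named by gene and summit distance from the transcript start, with dashed list medians. Pileups run from 19 to 28 tags with overlapping intervals, while fold enrichment runs from 2.99 to 7.31. Input background is computed from pileup and fold enrichment, and is lowest where fold enrichment is highest, at Hsd3b7.

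Baat had no peak within 5 kb of chr4:49502294-49519429, and the nearest lay 29616 bp away with vehicle and 29518 bp with FGF19.

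Of the transport genes, Slc10a1 had an FGF19 peak and Abcb11 had no peak. SLC10A1 (NTCP) takes bile acids up from portal blood, and ABCB11 (BSEP) exports them into bile. The Slc10a1 peak had the lowest pileup at any bile acid gene, 19 tags (11.4 to 29.7) or 1.41 depth-scaled, and a fold enrichment of 3.82 that was above 39.5% of the FGF19 list. It covered chr12:82068605-82068926, inside exon 1 of 396 bp, with the summit 258 bp from the start of the gene (chr12:82054172-82068971). The nearest vehicle peak was 564578 bp away. From Abcb11, chr2:69076339-69180671, the nearest peaks were 304466 bp away with vehicle and 304443 bp with FGF19.

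The FGF19 list is the longer of the lists although its library is the shallower. When the FGF19 list was shortened to its 1508 peaks of smallest q-value, the Slc10a1 peak was lost and the Hsd3b7 peak remained, so that 1 of 10 genes had an FGF19 peak only, against 5.35% of all genes.

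**Figure D3:**
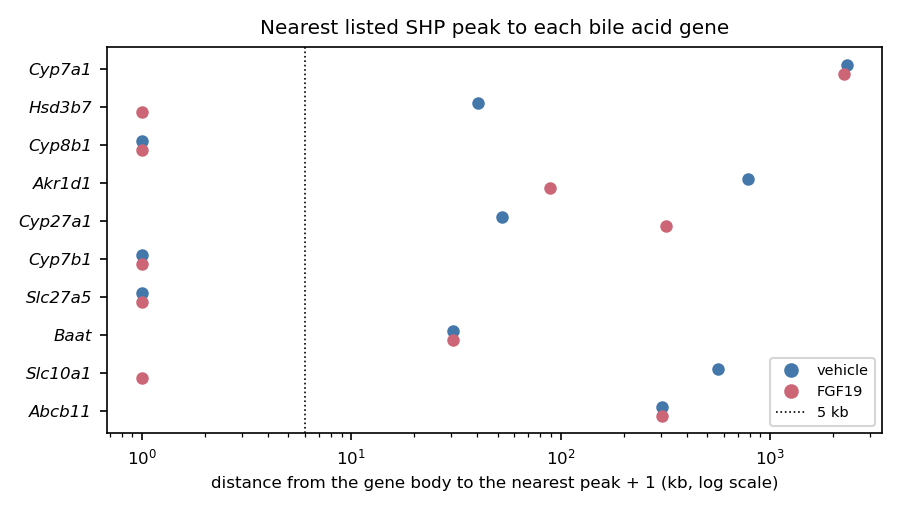
Distance from the gene body of each of the 10 bile acid genes to the nearest vehicle peak (blue) and FGF19 peak (red), in kb plus 1 on a log axis, with the 5 kb limit dotted. Cyp8b1, Cyp7b1 and Slc27a5 have a peak of both lists inside the gene, Hsd3b7 and Slc10a1 only an FGF19 peak, and Cyp7a1 is farthest from any peak.

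Just outside the 5 kb limit, Slc10a1 had an FGF19 peak at 6860 bp with 29 tags and a fold enrichment of 4.25, and Hsd3b7 had one at 8399 bp with 22 tags and 3.36. The next were 1 of Hsd3b7 at 15612 bp (20 tags, fold enrichment 4.31) and 1 of Slc27a5 at 26046 bp (23 tags, 3.72), both with FGF19. No vehicle peak lay between 5 kb and 29616 bp from a bile acid gene.

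The position of the peaks was compared with the whole lists. Exon summits made up 4 of 4 vehicle peaks and 7 of 7 FGF19 peaks at bile acid genes, against 51.1% and 50.6% of all peaks. Coding summits made up 4 of 4 and 6 of 7, against 17.3% and 16.1%. Intervals wholly inside 1 exon made up 4 of 4 and 6 of 7, against 15.8% and 11.2%. These shares are descriptions of 11 peaks, several of which share a gene, and they were not tested.

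Distance from gene starts was compared in the same way. Within 1 kb of a start lay 2 of 4 vehicle peaks and 4 of 7 FGF19 peaks at bile acid genes, against 72.7% and 81.8% of all peaks. Among all peaks within 1 kb of a start, 9.02% with vehicle and 8.33% with FGF19 lay wholly inside 1 exon. At the bile acid genes 2 of 2 such vehicle peaks and 3 of 4 such FGF19 peaks did, the exception being that in exon 2 of Slc27a5. Exons farther than 1 kb from a start held 2 of 4 and 3 of 7, against 17.5% and 8.68%. Introns held 0 of 4 and 0 of 7, against 4.31% and 3.84%, and sequence between genes 0 of 4 and 0 of 7, against 5.44% and 5.67%.

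**Figure D4:**
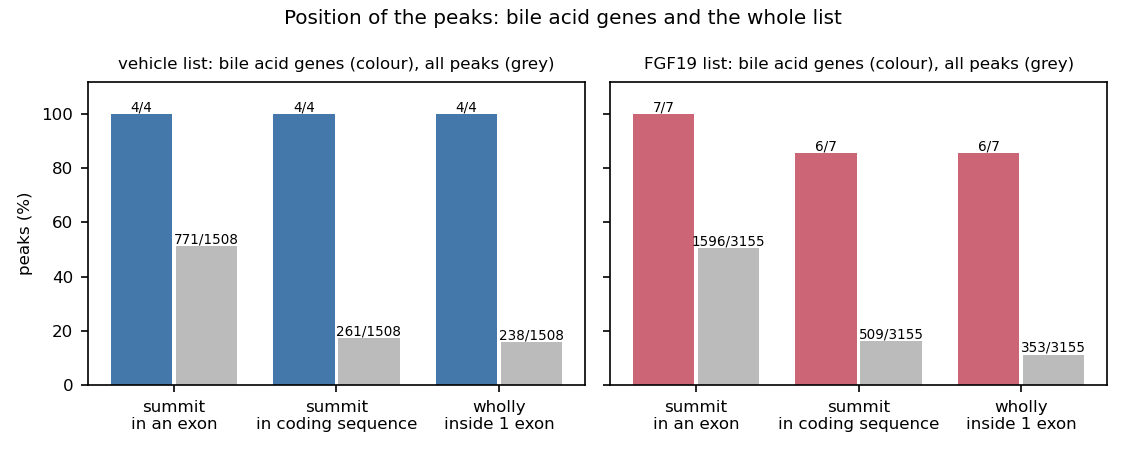
Percent of peaks with the summit in an exon, with the summit in coding sequence and with the interval wholly inside 1 exon, for bile acid genes (blue for vehicle, red for FGF19) and for all peaks of the list (grey), with counts above the bars. The bile acid genes stand at 4 of 4 and at 6 or 7 of 7, and the whole lists at 11.2% to 51.1%.

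**Figure D5:**
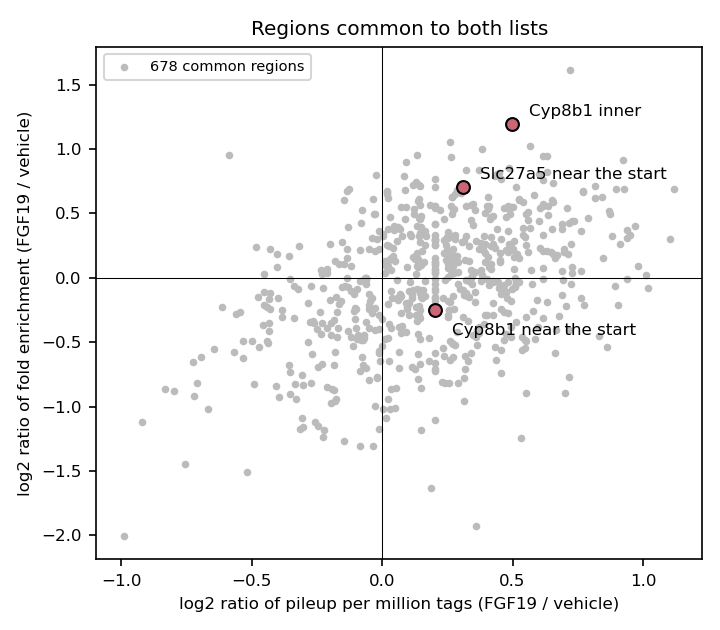
Log2 ratio (FGF19 over vehicle) of fold enrichment against that of depth-scaled pileup at the 678 regions common to both lists (grey), with the 3 bile acid regions in red. The inner Cyp8b1 region is at 1.19 for fold enrichment and 0.50 for pileup, Slc27a5 at 0.70 and 0.31, and the Cyp8b1 region near the start at -0.25 and 0.20.

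Each of the other motifs was found in 0 or 1 window of each list at the bile acid genes. The nuclear receptor half-site AGGTCA, the HNF4-type letters, the inverted repeat of that half-site spaced by 1 base (the site of FXR with RXR) and the sterol element TCACNCCAC each had 0 matches within 100 bp of the 4 vehicle and 7 FGF19 summits. AGGTCA was found in 9.08% of all vehicle windows and 7.15% of all FGF19 windows. The HNF4-type letters were in 0.199% and 0.0635%, TCACNCCAC in 0.531% and 0.508%, and the inverted repeat in none. With 4 and 7 windows, 0 matches cannot be told apart from shares of this size. GGGCGG, the core of SP1 sites, had 0 matches in the vehicle windows and 1 in the FGF19 windows, at Hsd3b7, although 45.2% and 57.1% of all windows held it. CCAAT (NF-Y, at Cyp7b1) and AANATGGC (YY1, in exon 2 of Slc27a5) each had 0 and 1, against 23.5% and 21.7% for CCAAT and 9.75% and 7.56% for AANATGGC. Both strands were searched.

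In the 300 bases before the main transcript start of the other genes compared, Baat had an HNF4-type match at -24 to -16. AGGTCA was present there once at Slc10a1, Abcb11 and Cyp7b1 and at 2 places at Akr1d1. Of all genes 15.3% held AGGTCA in the 300 bases before the outermost annotated gene start. At Hsd3b7 that start (chr7:134929122) is not the main transcript start (chr7:134944118). Hsd3b7, Slc27a5 and Cyp27a1 held none of the nuclear receptor letters before their main transcript starts.

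Of 33 other genes of bile acid metabolism, 6 had a vehicle peak and 6 an FGF19 peak, against 7.93% and 16.3% of all protein-coding genes. Slc27a2, Abcc2, Slco1b2 and Hnf4a had both. Among 12 other synthesis genes, 2 had a vehicle peak and 1 an FGF19 peak. Scp2, whose product includes the peroxisomal thiolase of side chain shortening, had vehicle peaks in its 3′ untranslated exon (fold enrichment 5.26) and in an intron (4.26). Slc27a2, an acyl-CoA synthetase, had a vehicle peak in exon 10 (4.35) and an FGF19 peak in its 5′ untranslated exon (2.63), and these did not overlap.

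Among 13 other transporters, 2 had a vehicle peak and 3 an FGF19 peak. Abcc2, the canalicular pump MRP2, had intron peaks of 14 tags with vehicle and 11 with FGF19 at different places. Abcc4, a basolateral efflux pump, had an FGF19 peak of 16 tags with its summit at -176 bp from the start. Slco1b2, an uptake carrier, had a peak in both lists in its 3′ untranslated exon, with 23 tags and a fold enrichment of 3.56 with vehicle and 21 tags and 5.20 with FGF19. At Slco1b2 the input background, which is computed from these values, was 3.23 tags with FGF19 and 5.74 with vehicle.

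Among 8 regulators, 2 had a vehicle peak and 2 an FGF19 peak. Nr0b2, the gene of SHP itself, had a vehicle peak of 14 tags in exon 1, 378 bp from its start, with a fold enrichment of 3.87, and no FGF19 peak. Hnf4a had a peak of 18 tags in both lists in its 3′ untranslated exon, with fold enrichments of 3.93 with vehicle and 3.53 with FGF19, and a vehicle peak in an intron (5.35). Rxra had an FGF19 peak in its 3′ untranslated exon (20 tags, 4.12). The other regulators, Nr1h4 (FXR), Nr1h3 (LXR alpha), Nr5a2, Fgfr4 and Klb (beta-Klotho), had no peak. Of the peaks at these 33 genes, 5 of 8 with vehicle and 4 of 6 with FGF19 had the summit in an exon. The shares of all peaks were 51.1% and 50.6%. Coding sequence held 2 of 8 and 0 of 6, against 17.3% and 16.1%. Wholly inside 1 exon were the exon peaks of Scp2, Slco1b2, Nr0b2 and Hnf4a with vehicle. With FGF19 those of Slc27a2, Slco1b2, Hnf4a and Rxra were. The remaining peaks were not, and the shares of all peaks were 15.8% and 11.2%. Such intervals were thus not confined to the 10 genes.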

How the data were processed

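SHP ChIP-seq was analysed from the peak lists of the vehicle and FGF19 groups, each called against its own input. Bowtie was used by the authors to place reads on mm9 with no more than 2 mismatches. The deposited headers give MACS version 2.0.10.20130501, an effective genome size of 1870000000, a cutoff of 0.05 on the q-value and 1 tag kept per position and strand. The processing notes of the submitters also name CASAVA 1.8.2 and Bowtie 1.0.0. The deposited signal is the pileup, an unscaled coverage of tags extended to 240 bp (vehicle) or 260 bp (FGF19) at the summit. The deposited fold enrichment is a ratio of the pileup to the local input background, made by the authors' peak caller. The deposited -log10 p-value and -log10 q-value come from the same caller. Columns of length and position were also used.

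From these values the input background was recovered as (pileup + 1) / fold enrichment - 1. Pileups were given exact Poisson 95% intervals, and ratios of depth-scaled pileup (per 1000000 tags) exact intervals conditional on the sum. Genes were the GENCODE M1 gene bodies on mm9, and regions counted as common when they shared at least 1 bp, with the strongest peak of each list compared. Motifs were exact matches on either strand in windows of 201 bp around summits and in 300 bases upstream. These bases were taken before the main transcript start for the bile acid genes and before the outermost gene start for all genes. The 7 FGF19 peaks on the mitochondrial genome were left out of the motif shares. Some sequence and some peaks outside the 5 kb limit are not reported here. With 1 pooled library per group no test was made. All 10 genes were named with every peak within 5 kb or their nearest peak. Of 33 other bile acid genes, those with a peak were named, and other genes only where their start was nearer to such a peak. The genes and lists were chosen with earlier results of these data known. Alternatives covered the distance, the q-value, the length of the FGF19 list, the gene model, the assignment by nearest start, the measure of binding and the motif window, and 2 kinds were added after the data were seen. The functions passed 7 of 7 checks on simulated data. The work used Python 3.11.15 with matplotlib 3.10.9, pyfaidx 0.9.0.4, scipy 1.17.1, pandas 2.3.3 and numpy 2.4.6.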

Additional observations from a re-analysis of the deposited data

How the results depend on the processing

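Each group is 1 pooled library, so leaving out a replicate could not be run. No paired analysis was possible because no group has a replicate. Of 90 alternatives, 11 moved a count by over 1.5 times, and 2 changed the sign of a ratio that was below 2-fold, both at the Cyp8b1 region near the start. A limit of 1 kb or 10 kb kept the counts of genes at 3 with vehicle and 5 with FGF19. Of all genes, 6.86% and 14.2% had such peaks at 1 kb, and 9.32% and 18.9% at 10 kb. A limit of 50 kb gave 5 genes with vehicle, 5 with both lists and 1 (Slc10a1) with FGF19 only, against 18.7%, 13.3% and 19.8% of all genes, from 7 vehicle and 17 FGF19 peaks, by construction over more sequence. Shortening the FGF19 list to 1508 peaks left 1 gene (Hsd3b7) with an FGF19 peak only. Without peaks wholly inside 1 exon, an alternative added after the data were seen, 0 genes with vehicle and 1 with FGF19 had a peak, against 6.74% and 14.5% of all genes. Whole peak intervals, which are longer than the windows, held the NF-Y letters at 2 FGF19 peaks, against 34.2% of all FGF19 peaks. The YY1 letters were at 2 vehicle and 2 FGF19 peaks, against 15.5% and 14.1% of all peaks. The NR5A2-type letters were at 2 vehicle and 3 FGF19 peaks, against 6.83% and 6.32%. The log2 ratios of fold enrichment at the inner Cyp8b1 region (1.19) and Slc27a5 (0.70) stayed above 0 but were 0.50 and 0.31 as depth-scaled pileup and 0.38 and 0.19 as pileup over the genome-wide expectation, which was added after the data were seen. At the Cyp8b1 region near the start the ratio of -0.25 became 0.20 and 0.09, a change of sign within counting error. Depth limits these results: pileups at the bile acid genes were 19 to 28 tags, and the lists do not show signal below the cutoff.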
